A study of Mus musculus with 4 samples.

Results

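Genomic imprinting was examined through 31 named mouse genes, taken from the 55418 genes of a count table and grouped by the chromosomal locus at which they are known to be imprinted. The 31 genes, here called the imprinted genes, were fixed by name and lie at 16 loci, 7 of which hold several of them and 9 of which hold 1. From general knowledge, 19 are expressed from the paternal copy and 10 from the maternal copy, while for Grb10 and Gnas the active copy depends on the tissue or the promoter. RNA-seq was done on E14 ESCs, a line of mouse embryonic stem cells whose strain is labelled 12910la, grown on gelatin in serum with LIF, a cytokine that maintains self-renewal. The WT group comprised 2 cultures with an unedited Pim3 gene. The Pim3-/- group comprised 2 knockout clones of the same line, made by CRISPR/Cas9 with guide RNAs against 2 exons, and each library of that group therefore stands for a single clone. PIM3 is a serine/threonine kinase, and the study asked how its loss changes the transcriptome. Each group had 2 libraries, which were taken as replicates, and an effect of the genotype cannot be told apart from differences between single cultures or clones.

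An imprinted gene keeps a memory of the parent that transmitted it, so that a single copy is transcribed. The memory is DNA methylation laid down at a control region in the egg or the sperm, and after fertilization it is kept by ZFP57, TRIM28 and DNMT1. Many loci pair protein-coding genes with a long non-coding RNA expressed from the opposite parental copy, and many of the proteins govern fetal and placental growth. In cultured ESCs imprints are known to be lost or gained between lines and clones. The counts analysed here add up both parental copies, so they measure how much RNA a locus gave and not from which copy it came.

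The libraries held 22029427 to 25668307 counts. Values are given as raw counts or as CPM, which are counts relative to the library size after TMM scaling, and fold changes come from edgeR's quasi-likelihood test with p-values adjusted by the Benjamini-Hochberg method over the 18444 genes that passed a filter on low counts. A gene was called at an adjusted p under 0.05. Across these genes the log2 CPM of the WT libraries had a Pearson correlation of 0.994 and those of the Pim3-/- libraries 0.973, against 0.94 to 0.957 between groups. Pim3 had 4392 and 4953 counts in WT against 4970 and 4804 in Pim3-/-, so that its count per gene does not test the labels. An exact permutation test of 2 libraries against 2 cannot give a p below 0.333 and was not used.

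Of the 31 imprinted genes, 28 passed the filter, 6 were called higher and 5 were called lower in Pim3-/-. That is 21.4% higher and 17.9% lower, against 17.6% and 16.2% of all genes tested, so that the share called was close to the background in both directions. The higher genes were Ascl2, Dlk1, Peg10, Sgce, Magel2 and Igf2r. The lower genes were Rian, Mirg, Rtl1, Mest and Grb10. Over the 28 the log2 fold changes had a median of 0.43, against 0.07 for all genes, and 19 of the 28 (67.9%) had a positive value, against 53.0% of all genes. With a threshold of 3-fold added, only Magel2 stayed among the higher genes and only Mest among the lower ones, where 8.47% and 1.38% of all genes passed. Magel2 had 1 and 2 counts in WT and passed the filter on low counts through Pim3-/- alone, so its place among the higher genes was favoured by the filter. The Pim3-/- libraries both lay above WT for 15 of the 28 (53.6%, all genes 38.3%) and both below for 7 (25.0%, all genes 34.2%). Zim1, Airn and Rasgrf1 had too few counts to be tested.

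The direction of the whole table depended on the scaling. The TMM factors were 0.828 and 0.883 for WT and 1.17 for both Pim3-/- libraries, and with library totals in their place the median of all genes moved from 0.07 to 0.52 on the log2 scale. The calls over all genes then changed from 3246 higher and 2987 lower to 6606 higher and 1092 lower, and those among the imprinted genes to 13 higher and 3 lower. Of the 11 calls 9 were kept, and Mirg (adjusted p = 0.0931) and Rtl1 (adjusted p = 0.183) were lost, while Cdkn1c, Gnas, Igf2, Impact, Ndn, Plagl1 and Zrsr1 were gained as higher, by the same test. Leaving out 1 library moved the number of calls over all genes too, so those numbers are not read here. The median log2 fold change of the imprinted genes was 0.39 without WT 1 and 0.31 without WT 2. It was 0.51 without Pim3-/- 1 and 0.14 without Pim3-/- 2, and that of all genes lay between 0.05 and 0.07. With 1 Pim3-/- library left, the spread came from the WT cultures alone, so only effect sizes are read from those fits. Several calls were lost without a WT library, as given below. Mest and Grb10 were called under every scaling, filter and test tried. Over these and every omission their log2 fold changes ranged from -3.75 to -2.16 and from -1.56 to -0.99.

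**Figure D1:**
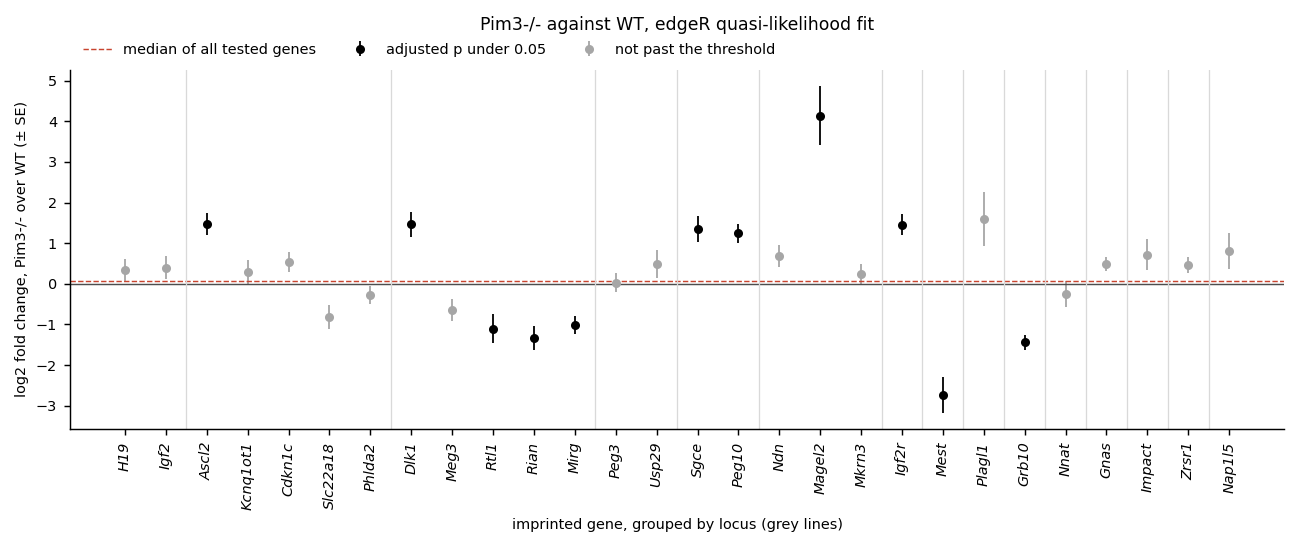
Log2 fold change of each tested imprinted gene, Pim3-/- over WT, on the vertical axis, with bars of 1 standard error, grouped by locus; called genes are black, the others grey, and the dashed line is the median of all tested genes. Ascl2, Dlk1, Peg10, Sgce, Magel2 and Igf2r are the black points above 0 and Rian, Mirg, Rtl1, Mest and Grb10 those below, with Mest at -2.73 and the fitted value of Magel2, which depends on the prior count, at 4.14.

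Markers of ESCs and of other cell types moved between the groups. The ESC markers summed to 10900 and 9800 CPM in WT and 6980 and 6630 in Pim3-/-, with Klf4 called higher and Pou5f1, Nanog, Dppa5a and Utf1 called lower among 10. Pou5f1 fell 2.18-fold, from 2250 to 1030 CPM (adjusted p = 0.00993), and Dppa5a 1.95-fold, from 3970 to 2030 CPM (adjusted p = 0.02). Of the primitive endoderm markers 9 of 11 were called higher, their sum being 407 and 417 CPM in WT and 597 and 624 in Pim3-/-, and Foxa2 was at 0 in WT. All 8 two-cell-like markers were called higher, with sums of 17.7 and 14.4 CPM in WT, 152 in Pim3-/- 1 and 43.6 in Pim3-/- 2. Of 11 trophoblast markers Eomes and Gata3 were called higher, with sums of 67.9 and 70.1 CPM in WT and 57.4 and 89.0 in Pim3-/-, and the defining placental genes Prl3d1 and Tpbpa were at 0 in every library. Fibroblast or mesoderm markers summed to 27.5 and 26 CPM in WT and 31.9 and 30.3 in Pim3-/-, with 1 called higher, and neuroectoderm markers to 143 and 136 CPM in WT and 102 and 78.7 in Pim3-/-, with 1 called lower. Over all genes tested, 17.6% were called higher and 16.2% lower. Duxf3 (3 and 5 counts in WT), Sox17 (1 and 5), Sox7 (3 and 0), Dab2 (4 and 17) and Gata3 (4 and 4) had few WT counts. They did not reach the filter's minimum in both WT libraries and passed through Pim3-/-, so their calls as higher were favoured by the filter. Single genes made up most of several sums in WT. Sparc stood at 359 CPM in WT and 295 in Pim3-/- for primitive endoderm, and Tfap2c at 59.8 and 45.6 for trophoblast. Thy1 stood at 20.3 and 18.6 for fibroblast or mesoderm, and Tubb3 at 124 and 72.3 for neuroectoderm. Of the 6 tested neuroectoderm markers 3 had a positive log2 fold change. The sums therefore do not give the level of a cell type. The part of these markers in the differences at the imprinted genes was not tested. In bulk RNA, a change in the number of cells of a type and a change in RNA per cell cannot be told apart.

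Several of the imprinted genes start in sequence rich in CG, the dinucleotide that carries DNA methylation. RefSeq promoter windows of GRCm38.p6, from 250 bases before to 50 after a transcription start, were found for 25 of the 31, and not for H19, Cdkn1c, Rtl1, Peg10, Sgce and Impact. Where a gene had several windows, the window with most CG was taken. The median window of the imprinted genes held 17 CG, against 8 over 27025 genes, with a range from 0 for Rian to 45 for Grb10. The letters TGCCGC, the core of the motif that ZFP57 reads when it is methylated, were searched on both strands (GCGGCA on the other). They were found in the windows of 7 of the 25 (28.0%) and of 12.2% of all genes. The letters themselves hold a CG, and the windows of the imprinted genes held more CG than those of all genes. The shares were not compared at equal CG, and the windows were not chosen as control regions. A match is a description of the sequence and not a binding site. The windows of 7 genes are printed as examples, 5′ to 3′ on the strand of the gene, with each CG in capitals. Meg3 among them was not called, and the windows of the called genes Ascl2 (23 CG) and Mirg (10 CG) are not printed. The window of Mest (chr6:30737800-30738099, plus strand) held 17 CG and 2 matches, that of Grb10 (chr11:12037371-12037670, minus strand) held 45 CG and 1 match, and that of Meg3 (chr12:109540746-109541045, plus strand) held 13 CG and 1 match. No match lay in the windows of Igf2r (chr17:12769657-12769956, minus strand, 34 CG), Magel2 (chr7:62376729-62377028, plus strand, 10 CG), Dlk1 (chr12:109452573-109452872, plus strand, 9 CG) and Rian (chr12:109603695-109603994, plus strand, 0 CG).
Mest: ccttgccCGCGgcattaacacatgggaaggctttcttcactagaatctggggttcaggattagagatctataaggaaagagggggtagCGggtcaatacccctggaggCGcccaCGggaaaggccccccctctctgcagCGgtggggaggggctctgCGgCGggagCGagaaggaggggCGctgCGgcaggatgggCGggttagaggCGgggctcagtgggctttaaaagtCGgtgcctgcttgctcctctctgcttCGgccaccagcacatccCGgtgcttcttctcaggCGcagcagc
Grb10: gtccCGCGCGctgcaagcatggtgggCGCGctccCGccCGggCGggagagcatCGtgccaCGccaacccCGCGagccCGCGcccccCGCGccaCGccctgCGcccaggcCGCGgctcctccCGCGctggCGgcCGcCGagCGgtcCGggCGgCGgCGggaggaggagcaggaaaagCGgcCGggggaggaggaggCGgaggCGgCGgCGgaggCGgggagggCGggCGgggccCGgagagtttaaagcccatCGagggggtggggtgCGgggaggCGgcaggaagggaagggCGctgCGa
Igf2r: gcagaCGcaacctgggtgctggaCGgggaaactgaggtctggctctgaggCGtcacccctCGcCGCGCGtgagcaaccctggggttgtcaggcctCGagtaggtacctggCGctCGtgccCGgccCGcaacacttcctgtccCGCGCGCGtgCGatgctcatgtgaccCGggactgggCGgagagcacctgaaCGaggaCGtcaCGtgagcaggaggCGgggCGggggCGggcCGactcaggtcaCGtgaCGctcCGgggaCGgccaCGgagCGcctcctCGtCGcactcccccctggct
Magel2: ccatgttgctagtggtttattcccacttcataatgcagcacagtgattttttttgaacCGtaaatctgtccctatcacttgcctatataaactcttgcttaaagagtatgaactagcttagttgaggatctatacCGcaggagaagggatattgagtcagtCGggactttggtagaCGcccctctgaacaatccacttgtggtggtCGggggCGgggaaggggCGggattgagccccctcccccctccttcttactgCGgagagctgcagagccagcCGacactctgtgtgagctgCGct
Dlk1: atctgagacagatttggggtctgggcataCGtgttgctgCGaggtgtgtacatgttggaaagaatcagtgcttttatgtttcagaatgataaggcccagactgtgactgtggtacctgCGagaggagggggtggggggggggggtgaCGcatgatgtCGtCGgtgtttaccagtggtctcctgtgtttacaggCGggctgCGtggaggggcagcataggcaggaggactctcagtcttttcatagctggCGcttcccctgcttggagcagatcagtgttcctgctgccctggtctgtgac
Meg3: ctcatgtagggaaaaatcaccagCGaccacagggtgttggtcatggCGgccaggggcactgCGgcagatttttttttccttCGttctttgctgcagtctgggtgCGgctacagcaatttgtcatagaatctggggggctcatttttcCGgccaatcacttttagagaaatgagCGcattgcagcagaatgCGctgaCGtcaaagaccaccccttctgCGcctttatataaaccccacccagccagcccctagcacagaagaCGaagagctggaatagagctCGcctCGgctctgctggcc
Rian: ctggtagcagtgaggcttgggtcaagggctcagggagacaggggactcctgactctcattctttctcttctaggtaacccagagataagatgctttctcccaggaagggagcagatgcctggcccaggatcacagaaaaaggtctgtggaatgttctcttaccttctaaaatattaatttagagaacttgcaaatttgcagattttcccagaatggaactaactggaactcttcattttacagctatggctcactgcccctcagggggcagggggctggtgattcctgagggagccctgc
By eye, the window of Grb10 is densely marked with capitals throughout, while that of Rian has none, although Grb10 and Rian were both lower in Pim3-/-. Among the printed genes that were higher, the window of Igf2r (34 CG) is dense in CG. Those of Magel2 (10 CG) and Dlk1 (9 CG) hold fewer and lie near the median of 8 over all genes.

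In WT ESCs the imprinted genes spanned a wide range of levels. Per exon length, as RPKM, Phlda2 was highest at 51.7 ± 3.48 (SD, n = 2), followed by Mest at 28.8 ± 0.516, Peg10 at 18.5 ± 3.5 and Impact at 15.5 ± 0.0857. Rian at 12.5 ± 1.03, Gnas at 12.3 ± 0.405 and Nnat at 12.2 ± 0.866 followed, and their ranges over the WT libraries overlapped, so that their order is not resolved. Cdkn1c at 9.26, H19 at 7.36, Meg3 at 7.19 and Igf2r at 5.48 RPKM came next, of which H19 and Meg3 overlapped. The genes from Slc22a18 to Ndn lay between 4.86 and 1.99, and the genes from Igf2 to Kcnq1ot1 between 0.925 and 0.0529. Zim1, Magel2, Rasgrf1 and Airn were at or close to 0. Kcnq1ot1 and Airn are long RNAs that silence their neighbours, and Airn had 0 counts in both WT libraries, which allows up to 0.157 CPM in WT 1 and 0.132 CPM in WT 2. Its annotated exons cover 3597 bases of a longer transcription unit, and reads outside them are not in the count.

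**Figure D2:**
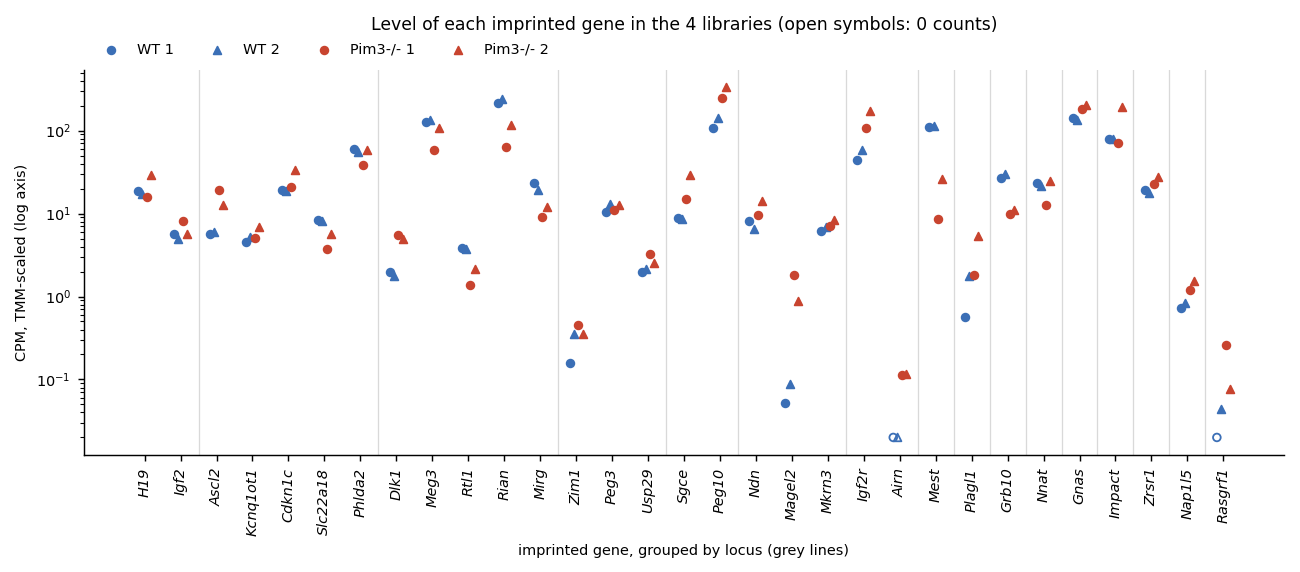
Level of each imprinted gene in every library, as TMM-scaled CPM on a log axis, grouped by locus; open symbols mark 0 counts. The Pim3-/- points of Mest, Rian, Mirg, Rtl1 and Grb10 both lie below the WT points, those of Peg10, Sgce, Igf2r, Ascl2, Dlk1 and Magel2 both lie above them, and those of Impact and H19 are far apart from each other.

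At the Dlk1-Meg3 locus, which covers 297 kb of chromosome 12, Rian, Mirg and Rtl1 fell, Dlk1 rose and Meg3 did not pass the test. Dlk1, a paternally expressed transmembrane protein of the Notch ligand family (chr12:109452823-109463336), had 38 and 40 counts in WT against 147 and 126 in Pim3-/-. Both Pim3-/- libraries stood above both WT libraries, and the gene rose 2.77-fold, from 1.88 to 5.20 CPM (log2 fold change 1.47, standard error 0.31, adjusted p = 0.0126). Rian, a maternally expressed non-coding RNA that holds small nucleolar RNAs and miRNAs (chr12:109603940-109661716), had 4106 and 5459 counts in WT against 1701 and 3040 in Pim3-/-. It fell 2.51-fold, from 228 ± 18.9 to 90.8 ± 38.3 CPM (log2 fold change -1.33, standard error 0.29, adjusted p = 0.0135). Mirg, a host of miRNAs at the far end of the locus (chr12:109729764-109749460), had 445 and 432 counts in WT against 240 and 311 in Pim3-/-, a fall of 2.01-fold (log2 fold change -1.01, standard error 0.23, adjusted p = 0.0162). Rtl1, a paternally expressed gene derived from a retrotransposon and needed in the placenta, lies on the minus strand between Meg3 and Rian. Its 74 and 84 counts in WT and 37 and 55 in the clones gave a log2 difference of -1.10 (standard error 0.36, adjusted p = 0.0489, edgeR). Rtl1 did not pass with the DESeq2 Wald test (adjusted p = 0.0573). Nor did it pass in edgeR when genes needed 10 counts in every library (adjusted p = 0.0565). Hairpins of 6 miRNAs lie across its exons on the opposite strand, that of Meg3, Rian and Mirg. Without strand, reads of Rtl1 cannot be told apart from reads of RNA made from that strand.

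Meg3, the maternally expressed non-coding RNA that opens the maternal cluster (chr12:109541001-109571726), had 2441 and 3001 counts in WT against 1577 and 2781 in Pim3-/-. On the CPM scale Pim3-/- lay below WT, at 83.5 ± 34.5 against 130 ± 3.58 (SD, n = 2), without passing the edgeR test (log2 fold change -0.64, standard error 0.27, adjusted p = 0.105). It passed with the DESeq2 Wald test (adjusted p = 0.0495), but not in edgeR with library totals (log2 fold change -0.19, adjusted p = 0.6). The log2 fold change of Meg3 was -1.15 without Pim3-/- 2 and -0.29 without Pim3-/- 1. The number of Meg3 counts per Dlk1 count was 64.2 and 75.0 in WT against 10.7 and 22.1 in Pim3-/-. Rian counts per Meg3 count were 1.68 and 1.82 in WT and 1.08 and 1.09 in Pim3-/-, so that Rian was lower beside Meg3 in both clones. Mirg counts per Meg3 count were 0.182 and 0.144 in WT and 0.152 and 0.112 in Pim3-/-, and those ranges overlapped. These ratios are unscaled and do not depend on the TMM factors. Meg3 shares 6.79% of its exon length with Gm26906 on the opposite strand, whose counts were 20.1% to 32.6% of those of Meg3. Without WT 1, Dlk1 (adjusted p = 0.122), Rian (0.0514), Mirg (0.176) and Rtl1 (0.254) were not called. Without WT 2 the adjusted p-values were 0.141, 0.0577, 0.0645 and 0.191 in the same order.

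**Figure D3:**
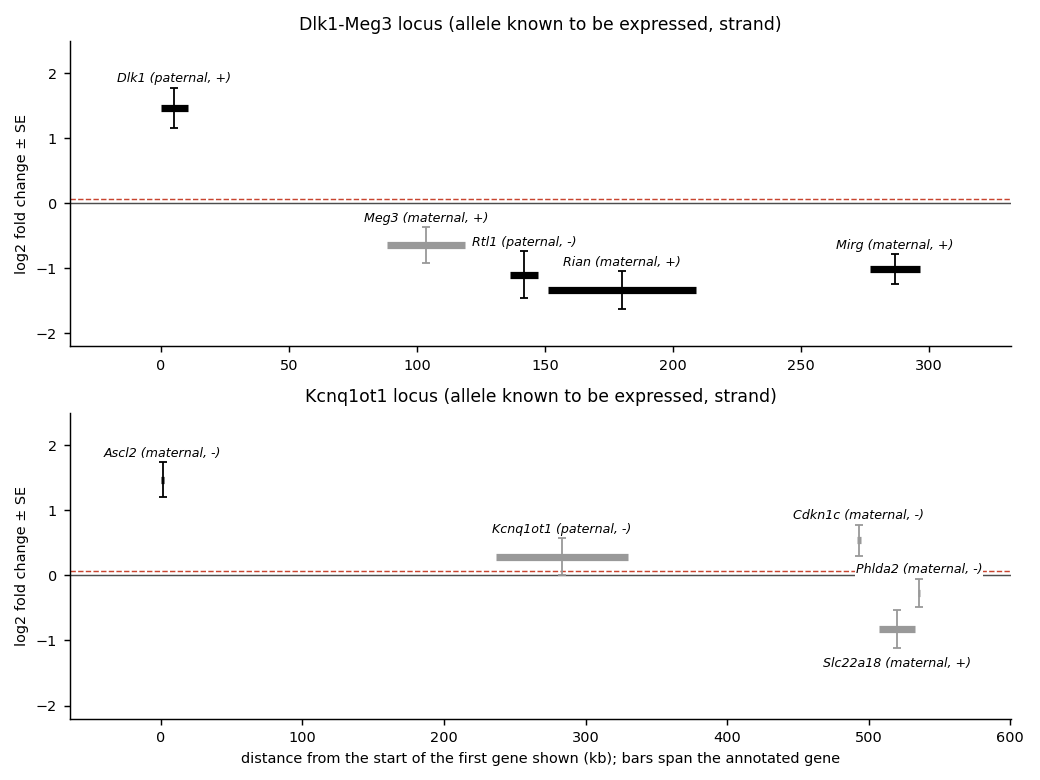
Log2 fold change of the genes at the Dlk1-Meg3 and Kcnq1ot1 loci against distance in kb from the start of the leftmost gene, with bars of 1 standard error, called genes in black and the others in grey. The dashed line is the median of all tested genes, 0.07. Dlk1 lies at 1.47 and the 4 other genes of its locus below 0, while at the Kcnq1ot1 locus Ascl2 stands apart at 1.47.

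The Kcnq1ot1 locus on chromosome 7 pairs a paternally expressed silencing RNA with maternally expressed genes over 536 kb. Ascl2, a transcription factor needed for the placental spongiotrophoblast (chr7:142966829-142969264), had 108 and 134 counts in WT against 516 and 326 in Pim3-/-. It rose 2.77-fold, from 5.78 ± 0.197 to 16.0 ± 4.73 CPM (log2 fold change 1.47, standard error 0.27, adjusted p = 0.00887), and was not called without WT 1 (adjusted p = 0.0855) or WT 2 (adjusted p = 0.0683). The other genes of the locus did not pass the test. Cdkn1c, an inhibitor of cyclin-dependent kinases that restrains growth, had 364 and 425 counts in WT against 562 and 870 in Pim3-/-, above WT in both clones on the CPM scale (log2 fold change 0.54, standard error 0.24, adjusted p = 0.124). Its log2 fold change was 0.82 without Pim3-/- 1 and 0.14 without Pim3-/- 2. Cdkn1c shares 30.7% of its exon length with Gm44732 on the opposite strand, whose counts were 51.1% to 61.9% of its own. Slc22a18, a transporter, had 159 and 186 counts in WT against 99 and 146 in Pim3-/- (log2 fold change -0.82, standard error 0.29, adjusted p = 0.0651). Its neighbour Phlda2, which limits placental growth and starts its annotated span 2210 bases away, had 1162 and 1249 counts in WT against 1015 and 1494 in Pim3-/-, with overlapping CPM (log2 fold change -0.27, adjusted p = 0.366). Slc22a18 had a log2 fold change of -0.56 without Pim3-/- 1 and -1.17 without Pim3-/- 2, whereas library totals gave -0.37 (adjusted p = 0.354, edgeR). Phlda2 stood at -0.62 without Pim3-/- 2 and at -0.02 without Pim3-/- 1, while library totals turned it to 0.18. Kcnq1ot1 itself had 88 and 119 counts in WT against 137 and 178 in Pim3-/- (log2 fold change 0.29, standard error 0.29, adjusted p = 0.459). Cdkn1c counts per Phlda2 count were 0.313 and 0.340 in WT and 0.554 and 0.582 in Pim3-/-, and did not overlap.

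H19 and Igf2 form the best known imprinted pair, the maternal H19 RNA and the paternal growth factor IGF2 sharing enhancers on chromosome 7. H19 had 360 and 394 counts in WT against 428 and 759 in Pim3-/- (log2 fold change 0.33, standard error 0.29, adjusted p = 0.397), and its groups overlapped as CPM because Pim3-/- 1, at 16.0 CPM, lay below WT. Without Pim3-/- 1 its log2 fold change was 0.69, and without Pim3-/- 2 its sign turned to -0.19. Igf2 had 108 and 112 counts in WT against 218 and 148 in Pim3-/- (log2 fold change 0.40, standard error 0.29, adjusted p = 0.313). It stood at 0.61 without Pim3-/- 2 and at 0.10 without Pim3-/- 1. The clones differed in opposite ways at these genes, H19 being 1.84-fold higher in Pim3-/- 2 and Igf2 being 0.703 of its Pim3-/- 1 level there. The H19 counts per Igf2 count were 3.33 and 3.52 in WT, 1.96 in Pim3-/- 1 and 5.13 in Pim3-/- 2, so that the clones lay on opposite sides of WT. Igf2 shares 62.8% of its exon length with the same-strand gene model Gm49394, which had 98.2% to 99.3% of its counts.

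At chromosome 6, Peg10 and Sgce are transcribed away from each other from annotated ends 98 bases apart, and both rose. Peg10, a retrotransposon-derived gene needed for placenta formation (chr6:4747306-4760517), had 2046 and 3166 counts in WT against 6651 and 8613 in Pim3-/-. Its level rose 2.36-fold, from 123 ± 23.3 to 292 ± 60.0 CPM (log2 fold change 1.24, standard error 0.23, adjusted p = 0.00839). Sgce, which encodes epsilon-sarcoglycan (chr6:4674350-4747207), had 170 and 196 counts in WT against 401 and 757 in Pim3-/-, a rise of 2.53-fold (log2 fold change 1.34, standard error 0.32, adjusted p = 0.0183). Peg10 counts per Sgce count were 12.0 and 16.2 in WT and 16.6 and 11.4 in Pim3-/-, and thus overlapped while both genes rose. Without WT 1 neither was called (adjusted p = 0.131 for Peg10 and 0.112 for Sgce), and without WT 2 Sgce was not called (adjusted p = 0.114).

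The paternally expressed genes of the Prader-Willi region on chromosome 7 differed in how much they moved. Magel2, which encodes a MAGE family protein that works with ubiquitin ligases (chr7:62377010-62381640), was nearly silent in WT with 1 and 2 counts and had 48 and 23 counts in Pim3-/-. Because WT lay under a floor of 3 counts per library, the rise is given as at least 9.34-fold, or at least 6.17-fold with Pim3-/- 2 alone and at least 12.5-fold with Pim3-/- 1 alone (adjusted p = 0.00759). The gene passed the filter on low counts through Pim3-/- alone, and without WT 1 or WT 2 its adjusted p was 0.0707 or 0.051. Ndn, or necdin, a MAGE family gene of neurons, had 156 and 149 counts in WT against 257 and 360 in Pim3-/- (log2 fold change 0.68, standard error 0.27, adjusted p = 0.0896). It stood at 0.91 without Pim3-/- 1 and at 0.37 without Pim3-/- 2. Mkrn3, a ubiquitin ligase known for its part in the timing of puberty, had 119 and 154 counts in WT against 189 and 216 in Pim3-/- (log2 fold change 0.25, standard error 0.25, adjusted p = 0.467). All of them lay above WT in both clones on the CPM scale. Snrpn, further along the same region and taken from a second list of imprinted genes, fell, with 4175 and 4468 counts in WT against 1999 and 2594 in Pim3-/- (log2 fold change -1.24, standard error 0.20, adjusted p = 0.00636).

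Igf2r, the maternally expressed receptor that clears IGF2 and sorts lysosomal enzymes (chr17:12682406-12769664), rose in both clones. It had 850 and 1306 counts in WT against 2848 and 4485 in Pim3-/-, a change from 51.0 ± 9.40 to 140 ± 47.6 CPM and 2.75-fold (log2 fold change 1.46, standard error 0.26, adjusted p = 0.00822; 0.0838 without WT 1). Its antisense silencer Airn, whose annotated span overlaps that of Igf2r, had 0 counts in both WT libraries and 3 in each Pim3-/- library, all at or under the floor.

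Mest moved most among the genes that fell. It is a paternally expressed gene of the alpha/beta hydrolase fold (chr6:30723547-30748465) that hosts miR-335 in an intron. Its counts were 2148 and 2605 in WT and 228 and 665 in Pim3-/-, all of the Pim3-/- values lying below all of the WT values. The level fell 6.62-fold, from 114 ± 2.03 to 17.2 ± 12.2 CPM (log2 fold change -2.73, standard error 0.44, adjusted p = 0.00636). The log2 fold change was -2.16 without Pim3-/- 1 and -3.75 without Pim3-/- 2, so that the size of the fall depended on the clone. Copg2 is read toward Mest from the opposite strand and shares 23.1% of the Mest exon length. It had 2546 and 2869 counts in WT against 1532 and 2622 in Pim3-/- (log2 fold change -0.71, adjusted p = 0.0742), and Mest counts per Copg2 count were 0.844 and 0.908 in WT against 0.149 and 0.254 in Pim3-/-. How many reads of the shared bases came from Copg2 cannot be told apart without strand, and such reads would sit in the count of either gene. Grb10, an adaptor that dampens insulin and IGF signalling (chr11:11930508-12038683), fell with the smallest adjusted p of the 28 tested. It had 508 and 671 counts in WT against 264 and 280 in Pim3-/-, a fall of 2.71-fold from 28.1 ± 2.2 to 10.4 ± 0.686 CPM (log2 fold change -1.44, standard error 0.19, adjusted p = 0.00438). The clones were close to each other at Grb10, 1.10-fold apart.

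The miRNAs hosted by these loci could be followed only through their hosts, since the libraries were of mRNA. The mature sequences of the miRNAs inside Mest and H19 are printed from RefSeq, on GRCm38.p6, because both hosts differed strongly between clones; the seed, bases 2 to 8, is in capitals. The 4 arms have 4 different seeds.
miR-335-5p: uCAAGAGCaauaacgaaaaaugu
miR-335-3p: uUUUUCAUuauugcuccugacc
miR-675-5p: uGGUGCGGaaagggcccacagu
miR-675-3p: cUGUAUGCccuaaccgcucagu
The Mir335 hairpin had 0 counts in every library. The Mir675 hairpin, which lies inside an H19 exon, had 33 and 44 counts in WT against 69 and 95 in Pim3-/-, and its reads cannot be told apart from those of H19. Between Dlk1 and the end of Mirg the RefSeq miRNA table used here, which need not be complete, lists 57 hairpins, 54 of them on the plus strand, the strand of Meg3, Rian and Mirg. Of those listed, 14 lie within the span of Mirg, and 6 lie opposite to Rtl1, where they can pair with its transcript in full.

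The Peg3 locus on chromosome 7 held no gene that passed the test. Peg3, a paternally expressed zinc finger gene tied to maternal behaviour and growth, had 200 and 294 counts in WT against 297 and 329 in Pim3-/-, and its log2 fold change (0.03, standard error 0.23, adjusted p = 0.938) changed sign with the scaling, to -0.01 with DESeq2 size factors. Usp29, which starts 146 bases from Peg3 on the other strand, had 38 and 48 counts in WT against 87 and 65 in Pim3-/- (log2 fold change 0.49, standard error 0.35, adjusted p = 0.297). It shares 14.3% of its exon length with Zim3, which had 92.1% to 122% of its counts. The maternally expressed zinc finger gene Zim1 had 3 and 8 counts in WT against 12 and 9 in Pim3-/- and was not tested.

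The remaining genes stand alone at their loci, and none of those tested passed in the comparison of all 4 libraries. Plagl1, a zinc finger regulator of other imprinted genes, had 11 and 40 counts in WT against 48 and 140 in Pim3-/- (log2 fold change 1.60, standard error 0.66, adjusted p = 0.0964), with libraries 3.08-fold apart in WT and 3.02-fold apart in Pim3-/-. The Plagl1 value rested on single libraries, being 0.99 without WT 1, 2.57 without WT 2, 2.15 without Pim3-/- 1 and 0.57 without Pim3-/- 2. Gnas, which encodes the stimulatory G protein alpha subunit, had 2698 and 3045 counts in WT against 4816 and 5296 in Pim3-/- (log2 fold change 0.49, standard error 0.17, adjusted p = 0.0635). Gnas passed when genes needed 10 counts in every library (adjusted p = 0.0411, edgeR), and stood at 0.56 without Pim3-/- 1 and 0.37 without Pim3-/- 2. Gm20721 on the opposite strand, with which Gnas shares 13.1% of its exon length, had 96.2% to 98.3% of the Gnas counts. Zrsr1, a splicing factor copied by retroposition into an intron of Commd1, had 368 and 398 counts in WT against 610 and 714 in Pim3-/- (log2 fold change 0.46, standard error 0.19, adjusted p = 0.0969). Zrsr1 stood at 0.57 without Pim3-/- 1 and at 0.30 without Pim3-/- 2, and its counts per Commd1 count were 0.123 and 0.136 in WT and 0.266 and 0.398 in Pim3-/-. It shares 9.17% of its exon length with Commd1 on the opposite strand, whose counts were 251% to 812% of its own, so the ratio may hold shared reads. Nnat, a neuronal proteolipid gene inside an intron of Blcap, had 448 and 479 counts in WT against 336 and 643 in Pim3-/- (log2 fold change -0.25, standard error 0.31, adjusted p = 0.557), and its sign turned to 0.21 with library totals and to 0.15 without Pim3-/- 1. Without Pim3-/- 2 its log2 fold change was -0.84. Nnat counts per Blcap count were 0.723 and 0.657 in WT, 0.492 in Pim3-/- 1 and 1.05 in Pim3-/- 2. Nap1l5, a nucleosome assembly protein homologue, had 14 and 19 counts in WT against 32 and 40 in Pim3-/- (log2 fold change 0.80, standard error 0.44, adjusted p = 0.190). Rasgrf1, a Ras exchange factor, had 0 and 1 counts in WT against 7 and 2 in Pim3-/- and was not tested.

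By parental copy, the 17 tested genes of paternal expression held 4 called higher (23.5%) and 2 called lower (11.8%), with 0.49 as the median of their log2 fold changes. The 4 called higher include Magel2, which passed the filter through Pim3-/- alone. The 2 called lower include Rtl1, whose counts may hold reads from the opposite strand. The 9 tested genes of maternal expression held 2 called higher (22.2%) and 2 called lower (22.2%) with a median of -0.27. All genes had 17.6% called higher and 16.2% called lower. Whether the medians differed was not tested.

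The clones differed from each other more at the imprinted genes than the WT cultures did, as a description of these libraries. All 28 tested genes had at least 20 counts over the Pim3-/- libraries, and 23 of them (82.1%) were higher in Pim3-/- 2, against 47.2% of all genes. The median absolute log2 ratio between the clones was 0.61 for the imprinted genes and 0.35 for all genes, whereas between the WT libraries it was 0.14 and 0.17. The exact (Clopper-Pearson) 95% interval of the ratio covers counting error only. It narrows with the number of counts, so that genes with many counts leave out equality at small differences. Over 2-fold higher in Pim3-/- 2 were Mest, Plagl1 and Impact, 3 of 28 (10.7%, all genes 5.49%), and over 2-fold higher in Pim3-/- 1 was Magel2, 1 of 28 (3.57%, all genes 5.06%). Between the WT libraries 1 of 27 (3.70%, all genes 3.04%) was over 2-fold apart, and it was Plagl1.

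Impact differed between the clones with a narrow interval. It encodes a regulator of the GCN2 kinase on chromosome 18 and had 1518 and 1809 counts in WT, 1917 in Pim3-/- 1 and 4914 in Pim3-/- 2. Pim3-/- 1 lay close to WT as CPM and Pim3-/- 2 stood 2.65-fold above Pim3-/- 1 (interval 2.52 to 2.80). The comparison of groups accordingly did not pass (log2 fold change 0.72, standard error 0.39, adjusted p = 0.184). It gave 1.24 without Pim3-/- 1, and its sign turned to -0.16 without Pim3-/- 2. Mest was 3.02-fold higher in Pim3-/- 2 (interval 2.59 to 3.53) and remained far below WT in both clones. Plagl1 was also 3.02-fold higher in Pim3-/- 2 (interval 2.16 to 4.28), but its WT libraries were themselves 3.08-fold apart. At Nnat, Sgce, Rian, H19 and Meg3 Pim3-/- 2 was 1.98, 1.95, 1.85, 1.84 and 1.83 times Pim3-/- 1, just under the threshold of 2-fold. Grb10, Gnas, Peg3, Mkrn3 and Dlk1 differed by less than 1.25-fold between the clones. There was 1 library per clone, so no test of a difference between clones was possible, and the number of the library does not say which edited clone it was.

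**Figure D4:**
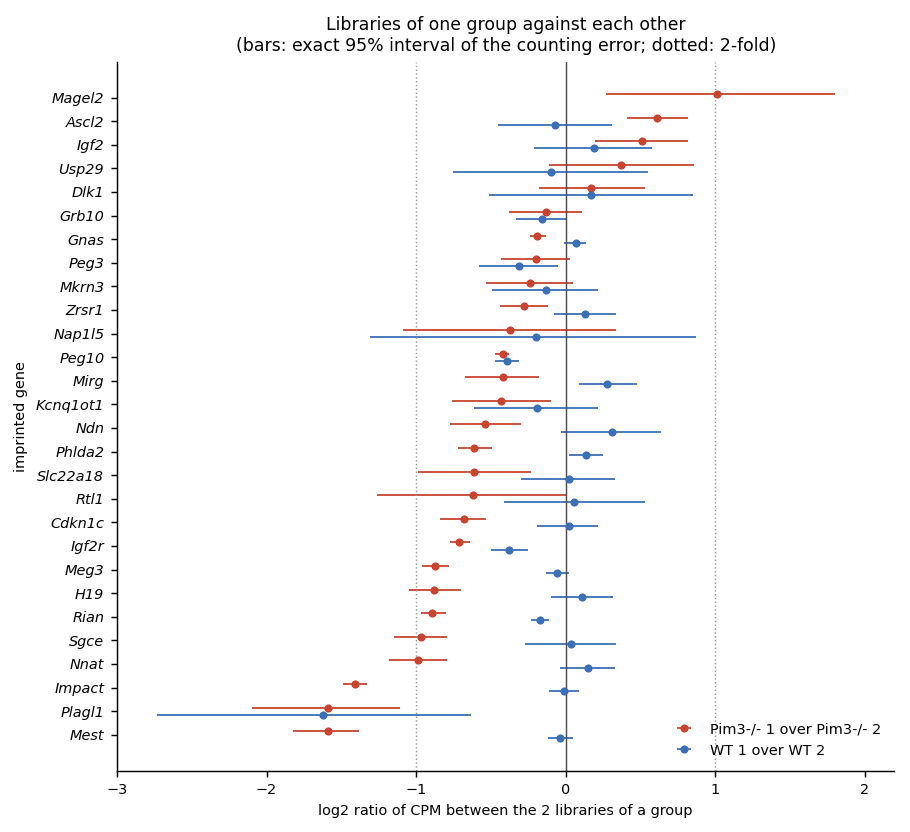
Log2 ratio of Pim3-/- 1 over Pim3-/- 2 for each tested imprinted gene with its exact 95% counting interval, beside the ratio of WT 1 over WT 2. Most Pim3-/- points lie below 0, with Mest and Plagl1 at -1.59 and Impact at -1.41, while most WT points lie near 0 apart from Plagl1 at -1.62.

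A second list of 51 genes known to be imprinted, drawn up from general knowledge, was read in the same way. Of the 40 tested, 8 were called higher (20%, against 17.6% of all genes) and 4 lower (10%, against 16.2%), so that the share called higher was near the background and the share called lower was under it, with a median log2 fold change of 0.15. The largest rise was at Osbpl5, a lipid transfer protein gene beyond the Kcnq1ot1 locus, with 15 and 12 counts in WT against 152 and 124 in Pim3-/- (log2 fold change 3, standard error 0.38, adjusted p = 0.00406). Begain, outside the Dlk1-Meg3 locus on the Dlk1 side, had 19 and 17 counts in WT against 112 and 106 in Pim3-/-. It rose by 2.25 on the log2 scale (adjusted p = 0.00636). Gatm, for creatine synthesis, rose by 1.84 (adjusted p = 0.0199) and Phactr2 by 1.69 (adjusted p = 0.00829) on the log2 scale, and Peg13, Dhcr7, Tnfrsf22 and Zfp264 were the others called higher. Mcts2 (log2 fold change -1.47, adjusted p = 0.00691), Snrpn, Commd1 (log2 fold change -0.87, adjusted p = 0.0142) and H13 (log2 fold change -0.61, adjusted p = 0.0234) were called lower. Mcts2 is a retrogene inside an intron of H13.

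Among 24 factors known to keep or erase imprints, all of which were tested, 1 was called higher (4.17%, against 17.6% of all genes) and 5 lower (20.8%, against 16.2%), with a median log2 fold change of -0.11. The share called lower was thus close to the background. Dppa3, which protects maternal methylation in the zygote, fell most, with 318 and 306 counts in WT against 115 and 31 in Pim3-/- (log2 fold change -2.44, standard error 0.51, adjusted p = 0.0121). The de novo DNA methyltransferase gene Dnmt3b fell by 1.30 on the log2 scale (adjusted p = 0.00636), the chromatin remodeller gene Hells by 0.96 (adjusted p = 0.00822), Naa10 by 1.43 (adjusted p = 0.0104) and the H3K9 methyltransferase gene Ehmt2 by 0.67 (adjusted p = 0.0243). Tet3, which oxidizes methylated cytosine, rose from 36 and 34 counts to 168 and 162 (log2 fold change 1.90, adjusted p = 0.00636). Among the keepers of imprints named above, which were not called, Zfp57 had 7479 and 8876 counts in WT against 8045 and 5252 in Pim3-/- (log2 fold change -0.63, adjusted p = 0.0666), and Trim28 had 39564 and 46172 against 39314 and 27938 (log2 fold change -0.68, adjusted p = 0.0586). Dnmt1 was at 244 ± 23.2 CPM in WT and 233 ± 19 in Pim3-/- (log2 fold change -0.07, adjusted p = 0.790). DNA methylation was not measured.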

How the data were processed

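The libraries were 2 of WT and 2 of Pim3-/- E14 ESCs, prepared as mRNA libraries after DNase treatment, and groups were taken from the sample labels. The authors deposited raw counts per gene. The methods of the study name Cutadapt, Hisat2, mm10 and Ensembl, while the submitters' processing notes name Trim Galore, STAR, featureCounts and GRCm38, and versions, strand setting and the treatment of reads with several locations are not given in the sources used here. Gm49394 and Gm20721, which overlap Igf2 on the same strand and Gnas on the opposite strand, had nearly the same counts as those genes, and genes that share exons with another gene are uncertain.

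Genes were filtered with filterByExpr (minimum count 10, minimum total 15), which kept 18444 of 31418 genes with at least 1 count, scaled by TMM and compared with the quasi-likelihood test of edgeR 4.0.16 in R 4.3.3. Errors beside means are SDs. The alternatives were the size factors and the Wald test of DESeq2 1.42.0, library totals, other filters, a replicate block and the omission of each library. With a library left out, the lone library of its group was assumed to vary like the other group. The scripts were tested on simulated counts of 18444 genes, 100 changed 2-fold and 100 changed 4-fold. The edgeR test recovered 26% of the former and 76% of the latter, and 12 of its 114 calls were false. Far more genes were called in the real data, so these rates need not hold there. Positions and exon lengths are from GENCODE M21 (GRCm38), sequences from RefSeq, and figures were drawn with matplotlib 3.10.9 in Python 3.11.15.

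All 31 imprinted genes are named, and of the other lists those called. The genes and lists were chosen with earlier results of these data known. The table of transposable elements was not used here. The paper describes the knockout lines as independent clones. It calls the WT libraries biological samples and does not say how separately those cultures were grown. The p-values measure the spread between these libraries.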

Additional observations from a re-analysis of the deposited data

How the results depend on the processing

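Replacing TMM factors by library totals gave 13 imprinted genes called higher and 3 lower, 14 and 2 of the other imprinted genes, and 6 and 3 of the imprint machinery. Over all 18444 genes the same change gave 6606 higher and 1092 lower. The machinery gave 2 higher when genes needed 10 counts in every library and 8 lower with the DESeq2 Wald test. All genes then gave 2689 higher of 15916 and 3197 lower of 18444. Leaving out each library in turn gave 0 to 13 imprinted genes higher and 2 to 9 lower, 1 to 17 and 1 to 13 of the other imprinted genes, and 0 to 4 and 3 to 11 of the machinery, where the edgeR fit without WT 1 had 1 of the machinery and 6 of the imprinted genes higher at an unadjusted p under 0.05, and the fit without WT 2 had 2 of the machinery. The upper ends of these ranges came from fits with 1 Pim3-/- library, where the spread came from the WT cultures alone. The number of calls over all genes moved with the omitted library too. The ranges are therefore not read as a result about these gene lists. A group of 1 library leaves fewer degrees of freedom, and the cause of each lost call was not tested. The sign turned for H19 (-0.19) and Impact (-0.16) without Pim3-/- 2, for Nnat with library totals (0.21) and without Pim3-/- 1 (0.15), for Phlda2 with library totals (0.18), and for Peg3 with DESeq2 size factors, no filter and the Wald test (-0.01 each), without WT 1 (-0.17) and without Pim3-/- 2 (-0.09). Leaving out each library in turn gave -0.19 to 0.69 for H19, -0.16 to 1.24 for Impact, -0.84 to 0.15 for Nnat and -0.17 to 0.11 for Peg3. None of these genes was called with all 4 libraries and TMM factors. Magel2 gave no value when genes needed 10 counts in every library.

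With the replicate number as a block, 7 imprinted genes were called higher and 6 lower, since Plagl1 (adjusted p = 0.0128) and Meg3 (adjusted p = 0.0283) were gained from edgeR, and no call was lost. Over all 18444 genes the block gave 3403 higher and 3272 lower. Same-numbered libraries share only a number: their deviations correlated at 0.0306 over 18444 genes with 2 pairs. Igf2, Cdkn1c, Usp29, Mest and Gnas share at least 10% of their exon length with another gene. Leaving them out, chosen after seeing the data, left 23 tested genes. Of these, 6 were called higher and 4 lower, with a median log2 fold change of 0.33. Over all genes tested 17.6% were called higher and 16.2% lower, with a median of 0.07. The genes that passed over 2-fold between the clones numbered 4 under each scaling. With 2 libraries a group, a gene that missed the threshold is not shown to be alike in both groups, and genes with few counts, such as Magel2, Airn, Zim1 and Rasgrf1, are limited by depth.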
